A study of Homo sapiens with 6 samples.

Results

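Readthrough genes are annotated where RNA polymerase II passes the end of 1 gene and the transcript continues into the next gene on the same strand. Splicing then joins exons of an upstream parent to exons of a downstream parent, and the product carries the names of both parents joined by a hyphen. Most of these transcripts consist largely of exons that the parents also use, and some can code for a protein that combines parts of both parents while others hold no reading frame of their own. They were examined here in TC71, a Ewing sarcoma cell line, after knockdown of EHD1, an endocytic recycling protein.

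The members were all rows of the count table whose symbol splits at a single hyphen into 2 symbols that both stand in the same table. This rule uses names only, and it found 120 readthrough genes (119 symbols, since ARMCX5-GPRASP2 has 2 identifiers) among 60676 rows. They had 236 distinct parent genes. The gene annotation called 110 of the members protein coding and 10 long non-coding RNAs. Both parents lay on 1 chromosome and 1 strand for 119 members. The exception was BORCS7-ASMT, whose name points to ASMT on another chromosome, and it had no count in any library. The distance between the parents had a median of 4613 bases and was negative, since the parents overlapped, in 13 members. For 102 members the annotation held an exon junction from an upstream-parent exon to a downstream-parent exon that no other gene has, called a bridging junction here. Bases of a member's exons that lie in no exon of any other gene are called own bases. Their median was 3.01% of the exon length, and 51 members had under 1%.

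The cells carried a Dox-inducible lentiviral construct for either a non-targeting control shRNA (shNTC+Dox, the control below) or an shRNA against EHD1 (shEHD1+Dox, the knockdown), and both were selected as pools and grown with 0.5 µg/ml Dox for 3 days. There were 3 libraries in each group, numbered 1 to 3 below in the order of their labels. Total counts were 26528902, 28203023 and 22711235 in the control and 28157184, 24150135 and 30582187 in the knockdown. Which EHD1 shRNA was used is not given in the sources used here, and nothing there says that the libraries came from separate cultures. The p-values therefore test the group difference against the spread between these libraries only. Every library had Dox, so loss of EHD1 cannot be told apart from other effects of the shRNA or other differences between the 2 lines. EHD1 had 713, 775 and 589 counts in the control and 215, 175 and 290 in the knockdown, a log2 fold change (log2 FC) of -1.76 (SE 0.12, edgeR adjusted p = 0.000135). All 7 Ewing sarcoma markers listed for the check were expressed, among them CD99 at 234 ± 13.0 CPM (counts scaled to the normalized library size) and NKX2-2 at 15.1 ± 2.11 CPM in the control (SD, n = 3). CD99 passed the test upward (0.33, edgeR adjusted p = 0.0293) and STEAP1 downward (-0.43, edgeR adjusted p = 0.00443), and the other 5 did not pass. The leukocyte, epithelial, endothelial and muscle markers were at or near 0 in every library, and the most abundant of these 13 genes was PTPRC at 0.330 CPM in the control.

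Of the 120 readthrough genes, 19 had no count in any library, 25 had counts but reached 10 in fewer than 3 libraries, and 76 had at least 10 counts in at least 3 libraries. Among these 76, 7 passed an adjusted p of 0.05 (9.21%), against 17.3% of all 16785 genes tested. DUS4L-BCAP29 and ANKHD1-EIF4EBP3 rose in the knockdown, while MSH5-SAPCD1, RNASEK-C17orf49, POC1B-GALNT4, TIMM23B-AGAP6 and CHKB-CPT1B fell. DUS4L-BCAP29, MSH5-SAPCD1 and RNASEK-C17orf49 also changed by at least 2-fold, the threshold for a called gene, which was 3.95% of the members against 2.82% of all genes. The unadjusted edgeR p was under 0.05 for 17 members (22.4%), against 32.3% of all genes. The median log2 FC was -0.01 over the members and 0.00 over all genes, and the members ranged from -2.38 to 4.97. The CPM values of the groups did not overlap for 16 members (21.1%), against 39.3% of all genes. Tests used edgeR's quasi-likelihood test with Benjamini-Hochberg adjustment over all genes. DESeq2 gave an adjusted p for 65 members, of which 12 passed (18.5%, against 23.9% of all genes with one) and 7 were called (10.8%, against 3.08%). In a fit with the replicate number as a block 9 passed (11.8%, against 10.5%) and 5 were called (6.58%, against 2.17%). When each library was left out in turn, between 2 and 5 members were called (2.78% to 7.04%, against 1.78% to 2.75% of all genes) and between 5 and 10 passed (6.94% to 14.1%, against 8.05% to 21.8%). In these fits 4 of the 7 passed each time: DUS4L-BCAP29, MSH5-SAPCD1, POC1B-GALNT4 and ANKHD1-EIF4EBP3.

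**Figure D1:**
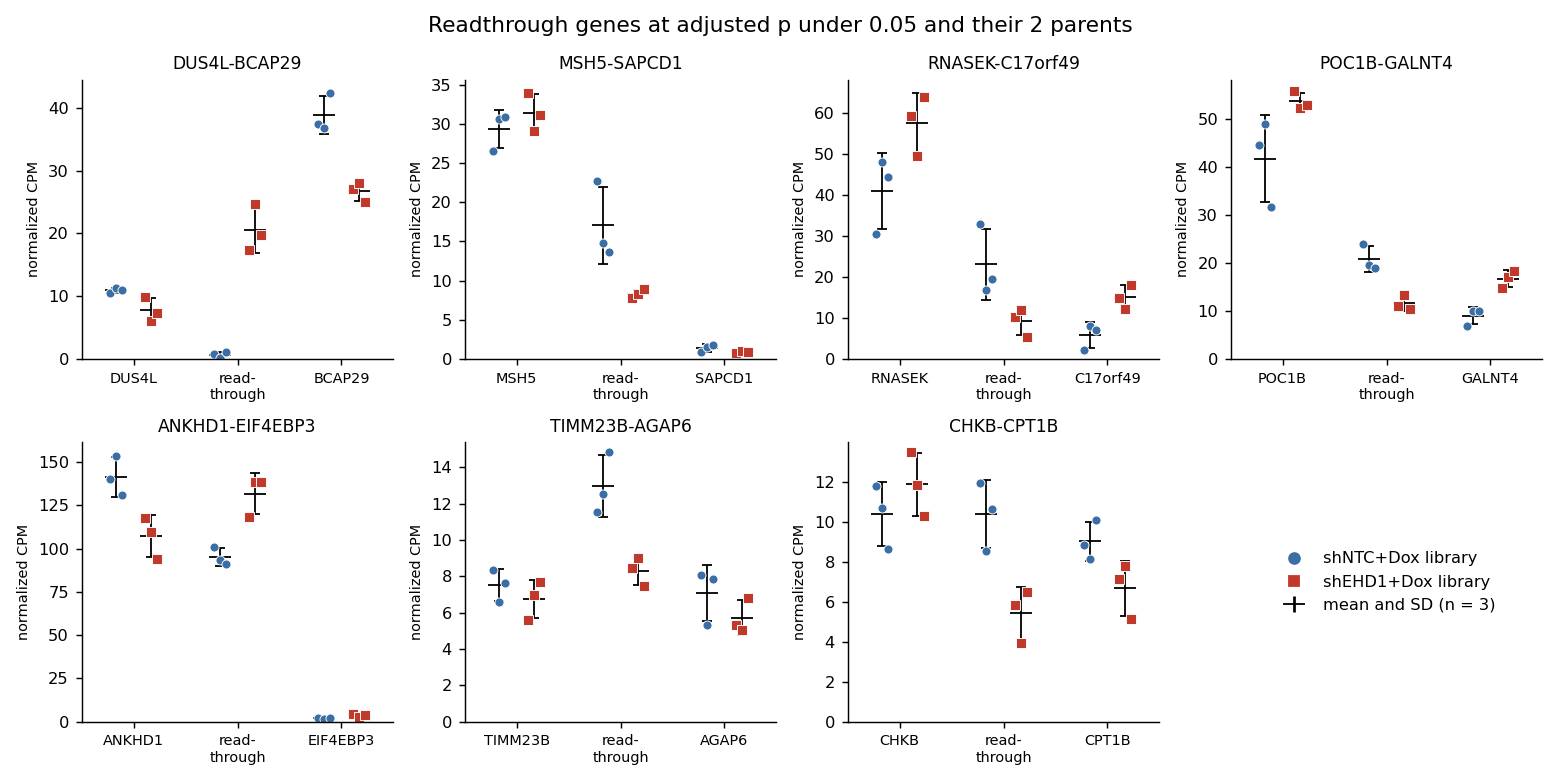
Normalized CPM (y axis, a separate linear scale from 0 in each panel) of the 7 readthrough genes at an adjusted p under 0.05 and of their upstream (left) and downstream (right) parents. Blue circles are control libraries (shNTC+Dox), red squares knockdown libraries (shEHD1+Dox), and bars the mean and SD (n = 3). DUS4L-BCAP29 goes from 0.677 to 20.6 CPM while BCAP29 goes from 38.9 to 26.7 CPM.

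The readthrough gene with the largest change was DUS4L-BCAP29 (ENSG00000288558, chr7:107563971-107623317 in hg38, plus strand). Its upstream parent DUS4L belongs to the dihydrouridine synthases, which modify tRNA, and its downstream parent BCAP29 codes for a membrane protein of the endoplasmic reticulum. DUS4L-BCAP29 had 19, 4 and 26 counts in the control and 496, 602 and 612 in the knockdown. Every library of the knockdown was far above every control library, and the levels were 0.677 ± 0.511 and 20.6 ± 3.66 CPM (SD, n = 3 each). The log2 FC was 4.97 (SE 0.49, edgeR adjusted p = 0.00143), and it was between 4.46 and 5.57 when 1 library was left out.

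Of its parents, BCAP29 fell in the knockdown. It had 985, 1019 and 946 counts in the control and 770, 684 and 776 in the knockdown, a log2 FC of -0.54 (SE 0.09, edgeR adjusted p = 0.00443). DUS4L had 276, 314 and 246 counts in the control and 283, 149 and 226 in the knockdown, a log2 FC of -0.49 that did not pass (edgeR adjusted p = 0.0943). The 3 genes together, the locus sum, had 1280, 1337 and 1218 counts in the control and 1549, 1435 and 1614 in the knockdown. Its log2 FC was 0.12 (edgeR adjusted p = 0.315), so the locus as a whole did not pass while its division between the 3 genes differed. The readthrough share, the counts of the readthrough gene as a percentage of the locus sum, was 1.31% ± 0.93 in the control and 37.3% ± 4.99 in the knockdown (SD, n = 3 each; exact two-sided permutation test, p = 0.1, the smallest that 3 against 3 libraries allow).

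DUS4L-BCAP29 has more sequence of its own than most members, with 2515 own bases of 7268 exonic bases (34.6%). These bases form 2 runs, both in its last exon. The run of 1151 bases lies between 2 exons of BCAP29, and the run of 1364 bases lies beyond the last base of BCAP29. Of its other exonic bases, 1495 are shared with DUS4L and 3258 with BCAP29. The annotation gives it a protein that shares residues in frame with both parents. How the counts divide between the own bases, the shared exons and the junction cannot be told from counts per gene.

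**Figure D2:**
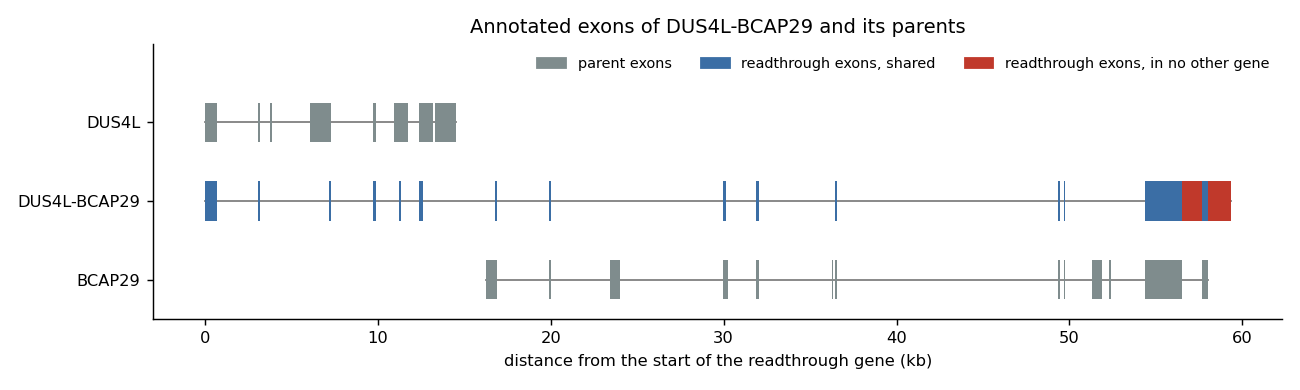
Annotated exons (GENCODE 44) of DUS4L, DUS4L-BCAP29 and BCAP29, drawn to scale against the distance in kb from the start of the readthrough gene. Grey boxes are parent exons, blue boxes readthrough exons shared with another gene, and red boxes the 2515 bases found in no other gene, all in the last exon.

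A transcript of the readthrough gene is told from both parents by the bridging junction, so the junctions are shown for the changed members that have one. DUS4L-BCAP29 has 2 bridging junctions, and the one in most of its annotated transcripts is given. MSH5-SAPCD1 has 3 and POC1B-GALNT4 has 2, each in 1 transcript, and 1 of them is given. Each line has the last 15 bases of the upstream parent's exon in lower case and the first 15 bases of the downstream parent's exon in capitals, in the direction of transcription. All were read from GENCODE 44 exons on GRCh38 (hg38). No other annotated gene has a transcript with any of these 5 sequences. ANKHD1-EIF4EBP3 and TIMM23B-AGAP6 have no bridging junction in this sense.
DUS4L-BCAP29: ttactgggacagatgGTGTGAAGAAAAAAA
MSH5-SAPCD1: cctcctgagactccgGAAGACTCCCGGATT
RNASEK-C17orf49: cgcaaggaatacatgGTCGGAGAGATCTTC
POC1B-GALNT4: acggcaagcaacttgGAAAGGGACAGGCGG
CHKB-CPT1B: tgttcctgagtttgaGTGCCGACCAACCCC

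The removed intron at these junctions ran over 4166 bases for DUS4L-BCAP29 (chr7:107576593-107580758) and 219 bases for MSH5-SAPCD1 (chr6:31762571-31762789). It ran over 784 bases for RNASEK-C17orf49 (chr17:7014278-7015061), 1446 bases for POC1B-GALNT4 (chr12:89523674-89525119, minus strand) and 1101 bases for CHKB-CPT1B (chr22:50577935-50579035, minus strand). The DUS4L-BCAP29 junction stands in 10 annotated transcripts and each of the other 4 in 1.

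ANKHD1-EIF4EBP3 was the other readthrough gene that rose. ANKHD1 codes for a protein with ankyrin repeats and an RNA-binding KH domain, and EIF4EBP3 is a member of the family that binds the cap-binding factor eIF4E and represses translation. ANKHD1-EIF4EBP3 had 2652, 2587 and 2038 counts in the control and 3359, 3382 and 4291 in the knockdown. The groups did not overlap, and the log2 FC was 0.47 (SE 0.08, edgeR adjusted p = 0.00664). ANKHD1 fell from 141 ± 11.5 to 107 ± 12.1 CPM (log2 FC -0.40, edgeR adjusted p = 0.0238), and EIF4EBP3 rose from 1.90 ± 0.24 to 3.71 ± 0.76 CPM (0.97, edgeR adjusted p = 0.0222; SD, n = 3 each). Each parent lost its adjusted p under 0.05 in 4 of 6 such fits with 1 library removed, with p up to 0.0840 for ANKHD1 and 0.0982 for EIF4EBP3. The locus sum had a log2 FC of 0.02 (edgeR adjusted p = 0.849), and its sign changed when a library was left out. The readthrough share was 39.9% ± 2.09 in the control and 54.3% ± 4.81 in the knockdown (SD, n = 3 each; exact permutation p = 0.1, the smallest possible). In the annotation the protein of this readthrough gene shares residues in frame with ANKHD1 only.

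POC1B-GALNT4 fell. POC1B is a protein of the centriole, and GALNT4 starts mucin-type O-glycosylation by adding GalNAc to proteins. The readthrough gene had 632, 542 and 424 counts in the control and 313, 327 and 326 in the knockdown, a log2 FC of -0.84 (SE 0.14, edgeR adjusted p = 0.00469). The 2 groups were apart, with the 3 knockdown libraries close to each other. GALNT4 moved the other way, with 183, 278 and 223 counts in the control and 422, 417 and 566 in the knockdown (log2 FC 0.90, SE 0.16, edgeR adjusted p = 0.00750). POC1B was at 41.8 ± 9.02 and 53.7 ± 1.85 CPM (SD, n = 3 each; log2 FC 0.36, edgeR adjusted p = 0.119). The readthrough gene shares 5029 of its 5500 exonic bases with GALNT4 and 252 with POC1B. The readthrough share was 29.3% ± 3.84 and 14.2% ± 1.76 (SD, n = 3 each), and the locus sum had a log2 FC of 0.19 (edgeR adjusted p = 0.204). Without control library 3 the log2 FC of POC1B was 0.20 and that of the locus sum 0.09.

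MSH5-SAPCD1 fell by 1.04 on the log2 scale (SE 0.19, edgeR adjusted p = 0.00811). MSH5 is a MutS homologue that acts in meiotic recombination. The readthrough gene had 596, 409 and 306 counts in the control and 221, 202 and 275 in the knockdown, so that the groups did not overlap but the control libraries were widely spread. Without control library 1 the log2 FC was -0.78, which passes the adjusted p (0.0137) but not the 2-fold threshold. MSH5 was at 29.3 ± 2.42 and 31.4 ± 2.44 CPM, with a log2 FC of 0.10 (edgeR adjusted p = 0.515). The log2 FC of MSH5 ranged from 0.03 to 0.15 with 1 library left out. SAPCD1 was far lower, at 1.42 ± 0.52 and 0.874 ± 0.125 CPM (log2 FC -0.69, edgeR adjusted p = 0.210; SD, n = 3 each). The locus sum had a log2 FC of -0.24 (edgeR adjusted p = 0.0559), and it passed in 1 of 6 fits with 1 library left out. Of the 4140 exonic bases of MSH5-SAPCD1, 38 are its own.

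RNASEK-C17orf49 was the third called gene and the least stable of the 7. RNASEK is the endoribonuclease kappa, and C17orf49 codes for a chromatin-associated protein. The readthrough gene had 866, 464 and 435 counts in the control and 289, 293 and 168 in the knockdown (log2 FC -1.33, SE 0.36, edgeR adjusted p = 0.0489). Its groups did not overlap, but its adjusted p lay between 0.0512 and 0.140 in all 6 fits that left out a library. C17orf49 had 56, 224 and 158 counts in the control and 423, 300 and 561 in the knockdown, which did not overlap either, with a log2 FC of 1.39 that did not pass (edgeR adjusted p = 0.0880). RNASEK was at 41.0 ± 9.16 and 57.6 ± 7.34 CPM (SD, n = 3 each; log2 FC 0.49, edgeR adjusted p = 0.0839). The locus sum had a log2 FC of 0.23 (edgeR adjusted p = 0.0894).

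CHKB-CPT1B joins choline kinase beta, an enzyme of phosphatidylcholine synthesis, to the muscle form of carnitine palmitoyltransferase 1. It had 314, 237 and 237 counts in the control and 166, 96 and 201 in the knockdown. The groups did not overlap, and the log2 FC was -0.93 (SE 0.21, edgeR adjusted p = 0.0182). The parents had log2 FCs of 0.19 (CHKB, edgeR adjusted p = 0.435) and -0.43 (CPT1B, edgeR adjusted p = 0.133). With 1 library left out these ranged from 0.08 to 0.29 for CHKB and from -0.56 to -0.28 for CPT1B. The CHKB-CPT1B locus sum had a log2 FC of -0.31 (edgeR adjusted p = 0.0702). TIMM23B-AGAP6 had 304, 347 and 332 counts in the control and 241, 220 and 231 in the knockdown, a log2 FC of -0.64 (SE 0.14, edgeR adjusted p = 0.0157). It was the 1 member of the 7 whose locus sum also passed, at -0.41 (edgeR adjusted p = 0.0301). With the replicate block neither passed (edgeR adjusted p = 0.0538 and 0.0557), and with 1 library left out the sum did not pass in 4 of 6 fits (edgeR adjusted p from 0.0236 to 0.118 over the 6). Its readthrough shares of 47.2% ± 5.24 and 40.1% ± 5.34 overlapped (SD, n = 3 each; exact permutation p = 0.3). TIMM23B and AGAP6 have close copies elsewhere in the genome, so these counts are uncertain. With 1 library left out, each of CHKB-CPT1B and TIMM23B-AGAP6 did not pass an adjusted p of 0.05 in 2 of 6 fits, at adjusted p values up to 0.0615 and 0.0702.

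A locus sum is the same whether a read was counted for the readthrough gene or for a parent, but it would change if reads of shared exons were left out or counted more than once, which is not known here. Over 101 locus sums tested, 15 passed an adjusted p of 0.05 (14.9%), 7 higher and 8 lower, against 17.8% of all rows in that fit. This count moved widely: 25 passed with DESeq2 (25.3%, against 24.3% of all rows), 8 with the replicate block (7.92%, against 11.1%) and 4 to 19 with 1 library left out (3.96% to 18.8%, against 8.29% to 22.4%). It was 7 without control library 1 and 4 without either knockdown library 1 or 3. With the 2-fold threshold the sums of HSPB2-C11orf52 and TRIM6-TRIM34 were called (1.98%), against 2.85% of all rows. The HSPB2-C11orf52 locus had 31, 40 and 40 counts in the control and 85, 75 and 102 in the knockdown (log2 FC 1.08, edgeR adjusted p = 0.0133). The readthrough gene gave only 0, 11 and 3 of the knockdown counts and 0 of the control counts, and the heat shock protein gene HSPB2 gave none, so nearly all counts were those of C11orf52. C11orf52 alone passed the adjusted p (0.0222, edgeR) but lay just under the 2-fold threshold, so the call of the sum rests on the added readthrough counts. The TRIM6-TRIM34 locus, which holds a pair of E3 ubiquitin ligases of the tripartite motif family, had 33, 47 and 24 counts in the control and 10, 12 and 21 in the knockdown (log2 FC -1.40, edgeR adjusted p = 0.0303). There the readthrough gene had 16, 31 and 11 counts in the control and 7, 8 and 12 in the knockdown, a log2 FC of -1.21 that did not pass by itself (edgeR adjusted p = 0.103). Each of these 2 sums lost its call in at least 1 fit without a library, and neither was called without control library 1.

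**Figure D3:**
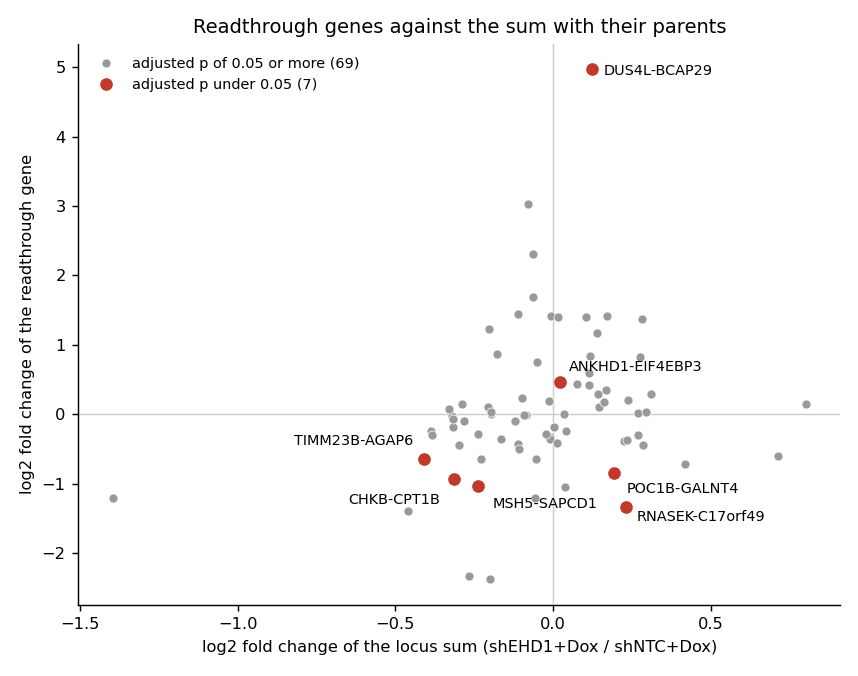
Log2 fold change of each of the 76 readthrough genes tested (y axis) against the log2 FC of its locus sum (x axis), knockdown over control. Red points are the 7 genes at an adjusted p under 0.05. Values of the readthrough genes run from -2.38 to 4.97, whereas their locus sums lie between -1.40 and 0.80.

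The parents were tested in the same fit as the readthrough genes. Of 173 parents tested, 25 passed an adjusted p of 0.05 (14.5%), 10 higher and 15 lower, against 17.3% of all genes tested. Of these, 4 were called (2.31%), all lower, against 2.82% of all genes. BCL2L2, which codes for the antiapoptotic protein BCL-w, had 817, 898 and 776 counts in the control and 382, 331 and 368 in the knockdown, a log2 FC of -1.34 (SE 0.10, edgeR adjusted p = 0.000153). Its readthrough gene BCL2L2-PABPN1 had 349, 521 and 235 counts in the control and 351, 268 and 397 in the knockdown, with overlapping groups and a log2 FC of -0.24 (edgeR adjusted p = 0.444). The sum of this locus passed as well, at -0.39 (edgeR adjusted p = 0.0117). CDK3, a cyclin-dependent kinase, had a log2 FC of -1.34 (edgeR adjusted p = 0.0222) at a mean of only 1.27 CPM in the control, while TEN1-CDK3 had -0.30 (edgeR adjusted p = 0.477). The purinergic receptor P2RY11 was at -1.08 (edgeR adjusted p = 0.0471) and PPAN-P2RY11 at 0.08 (edgeR adjusted p = 0.863). Their locus sum, at -0.33, did not pass (edgeR adjusted p = 0.0810). DBNDD2 was at -1.17 (edgeR adjusted p = 0.0412). SYS1-DBNDD2 had 62, 0 and 2 counts in the control and 274, 0 and 327 in the knockdown, with overlapping groups and a log2 FC of 3.03 (SE 2.04, edgeR adjusted p = 0.387). The sum of that locus was at -0.08 (edgeR adjusted p = 0.543). With 1 library left out, BCL2L2 was called in 6 of 6 fits, CDK3 in 3, P2RY11 in 2 and DBNDD2 in 1. With the replicate block BCL2L2 and DBNDD2 were called, and CDK3 and P2RY11 were not. Calls made up 2.17% of all genes with the block, against 2.82% without it. Without control library 3 the log2 FC of P2RY11 was -0.59. In all, 1 parent was called without knockdown library 1 and 2 without knockdown library 3. Of all genes, 1.98% and 1.78% were called in these fits. These 4 parents were picked by their calls, and whether each differed from its readthrough gene was not tested. Of the 25 parents that passed, 21 stand beside a readthrough gene that did not pass or was not tested. Only 7 of the 120 members passed, so most parents stand beside such a readthrough gene whether they passed or not.

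Replicates differed far more for readthrough genes than for their loci. The spread, the SD of log2 CPM between the libraries of 1 group, pooled over the 2 groups, had a median of 0.62 over the 76 readthrough genes (quartiles 0.34 and 1.20). It was 0.18 over the parents, 0.11 over the locus sums and 0.16 over all genes tested. In 75 of 76 cases the readthrough gene had a larger spread than its own locus sum. This was largely set in advance. The sum holds the readthrough gene, is the same however reads are divided within the locus, and lies higher (median 46.3 against 5.09 CPM). Readthrough genes also had a larger spread than all genes of like level: between 1 and 10 CPM the median spread was 0.80 for 37 readthrough genes and 0.27 for 4271 genes, and between 10 and 100 CPM it was 0.43 for 25 readthrough genes and 0.12 for 7621 genes. The spread of the readthrough genes ran against the amount of own sequence. Its median was 1.11 in the 26 members with under 1% own bases, 0.80 in the 25 with 1% to 10%, and 0.50 in the 25 with 10% or more. The members with the fewest own bases also had the highest median level (7.50 CPM, against 3.77 and 3.48), and of the 7 that passed, 1, 3 and 3 were in these groups.

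**Figure D4:**
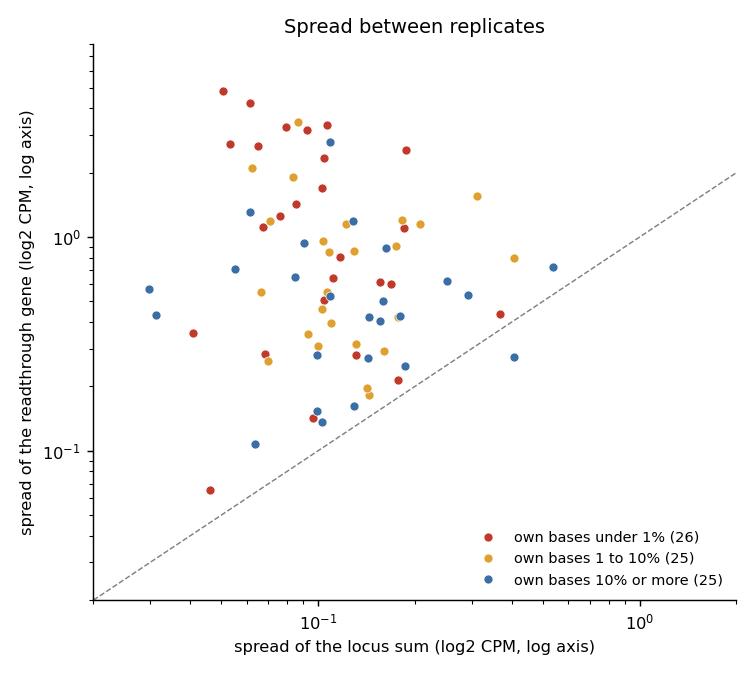
Spread between replicates (pooled within-group SD of log2 CPM, log axes) of the 76 readthrough genes tested (y axis) against that of their locus sums (x axis), coloured by the percentage of exonic bases found in no other gene. Points above the dashed line of equal spread, 75 of 76, are readthrough genes that varied more than their locus.

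Some readthrough genes had counts in 1 library and none in another of the same group. In 18 of the 120 members a group held a library with 0 counts and another with at least 50. Of the 76 members tested, 11 did (14.5%), against 0.423% of all genes tested, none of the parents tested and none of the locus sums. The 4 loci described next were chosen after their values were seen. BLOC1S5-TXNDC5 and TMEM189-UBE2V1 are among these 18, while ATP6V1G2-DDX39B and RPS10-NUDT3 had counts in every library but differed widely between replicates. BLOC1S5-TXNDC5 joins a subunit of the BLOC-1 complex, which acts in the making of lysosome-related organelles, to TXNDC5, a protein disulfide isomerase of the endoplasmic reticulum. It had 0 counts in all 3 control libraries and 4668, 4212 and 0 in the knockdown, so it was present in only 2 libraries and was not tested. TXNDC5 had 6282, 6464 and 5386 counts in the control and 3502, 2794 and 9045 in the knockdown. It was lowest in just those libraries where the readthrough gene had counts. BLOC1S5-TXNDC5 shares 2658 of its 3030 exonic bases with TXNDC5 and has no own base. The locus sum, which also holds EEF1E1-BLOC1S5 and its parent EEF1E1, had 8896, 9239 and 7846 counts in the control and 11086, 9645 and 12316 in the knockdown (log2 FC 0.21, edgeR adjusted p = 0.0438).

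In ATP6V1G2-DDX39B a like pattern was seen in both groups. ATP6V1G2 is a subunit of the vacuolar proton pump, and DDX39B is an RNA helicase of splicing and mRNA export. The readthrough gene had 88, 3819 and 70 counts in the control and 283, 280 and 4128 in the knockdown, while DDX39B had 10229, 6779 and 9486 and then 9306, 8283 and 6846. In each group the library with the most readthrough counts had the lowest count of DDX39B. TMEM189-UBE2V1, which joins the plasmanylethanolamine desaturase gene to a ubiquitin-conjugating enzyme variant, had 565, 0 and 0 counts in the control and 77, 1653 and 0 in the knockdown. UBE2V1 had 4080, 4734 and 3979 counts in the control and 4498, 2755 and 5278 in the knockdown, lowest in the library where the readthrough gene was highest. RPS10-NUDT3 joins a protein of the small ribosomal subunit to a diphosphoinositol polyphosphate phosphohydrolase. It ranged from 720 to 4441 counts in the control and from 967 to 3143 in the knockdown, with a log2 FC of -0.35 (SE 0.85, edgeR adjusted p = 0.816).

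**Figure D5:**
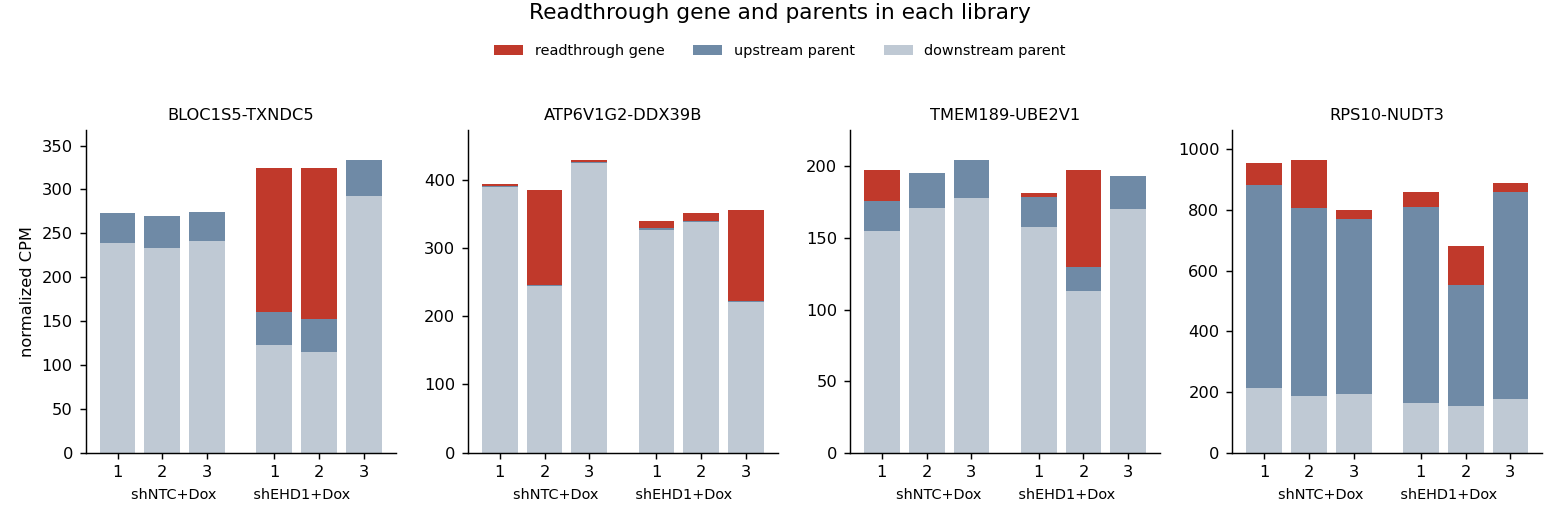
Normalized CPM of 4 readthrough genes (red) stacked on their upstream (dark) and downstream (light) parents in each of the 6 libraries. BLOC1S5-TXNDC5 appears in 2 of the 6 libraries and ATP6V1G2-DDX39B is high in 1 library of each group, while the height of the whole bar varies less.

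The junctions of these 4 loci are shown because reads within single exons do not tell these members from their parents: the first 3 have no own base and RPS10-NUDT3 has 2. Capitals again mark the first 15 bases from the downstream parent.
BLOC1S5-TXNDC5: caggaacgaaaaaagGTGTGGACACTGCCA
ATP6V1G2-DDX39B: agcaagcagcaggcgACAGGCATTTTCCAA
TMEM189-UBE2V1: tctgcatcaccacagGAGTAAAAGTCCCTC
RPS10-NUDT3: accgaattccagtttGTGCTACTCGTGAGC

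Levels per kb of exon let readthrough genes be compared with each other. In the control the 76 members tested had a median of 1.73 CPM per kb. NME1-NME2, which joins 2 nucleoside diphosphate kinases, was highest at 262 CPM per kb in both groups, above NME1 (44.6 CPM per kb) and NME2 (79.6 CPM per kb) in the control, although its 1241 exonic bases are all shared. How reads of these shared bases were divided is not known, and lengths count every annotated exon base of a gene. Its place above NME1 and NME2 therefore does not show that the readthrough RNA was more abundant. NME1-NME2 had 9222, 7752 and 7694 counts in the control and 9435, 7402 and 10532 in the knockdown, with overlapping groups and a log2 FC of -0.00 (SE 0.10, edgeR adjusted p = 0.996). Next came RPL36A-HNRNPH2 at 60.4, RPL17-C18orf32 at 35.6, HSPE1-MOB4 at 29.7 and ATP6V1G2-DDX39B at 20.3 CPM per kb. RPL36A and RPL17 code for proteins of the large ribosomal subunit, and HSPE1 for the mitochondrial co-chaperonin HSP10. RPL17 itself was at 389 CPM per kb. DNAJC25-GNG10, NDUFC2-KCTD14 and RPS10-NUDT3 were at 18.0, 17.7 and 17.6 CPM per kb, RNASEK-C17orf49 at 11.8 and ANKHD1-EIF4EBP3 at 8.36. The places of ATP6V1G2-DDX39B and RPS10-NUDT3 in this order rested on control library 2, without which they were at 1.37 and 10.4 CPM per kb, values computed after the data were seen. DNAJC25-GNG10, which joins a DnaJ-type chaperone gene to a G protein gamma subunit, had the closest replicates of these 10, with a spread of 0.07 and a log2 FC of -0.02 (SE 0.08, edgeR adjusted p = 0.917). NDUFC2-KCTD14, whose upstream parent is a subunit of respiratory complex I, had 469, 416 and 247 counts in the control and 312, 137 and 148 in the knockdown, which overlap, and its log2 FC of -1.04 did not pass (edgeR adjusted p = 0.0662).

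The readthrough gene was usually the minor part of its locus. The mean readthrough share of the members tested had a median of 8.98% in the control and 11.0% in the knockdown, and 34 members were under 10% in both groups. It was over 50% in the control for 5 members: IQCJ-SCHIP1 (90.4%), JMJD7-PLA2G4B (90.2%), SLX1A-SULT1A3 (63.6%), TEN1-CDK3 (63.0%) and TRIM6-TRIM34 (53.4%). These shares are of counts and so favour longer genes. IQCJ-SCHIP1 had 30, 20 and 16 counts in the control and 14, 29 and 37 in the knockdown, and its upstream parent IQCJ had none in any library. JMJD7-PLA2G4B, which joins a gene of the JmjC-domain family to a cytosolic phospholipase A2, had 306, 316 and 209 counts in the control and 288, 208 and 304 in the knockdown, with a log2 FC of -0.19 (edgeR adjusted p = 0.386). JMJD7 alone had 9, 26 and 19 and then 73, 51 and 36 counts (log2 FC 1.44, edgeR adjusted p = 0.0511). The readthrough share of JMJD7-PLA2G4B was 90.2% ± 5.67 in the control and 79.1% ± 5.48 in the knockdown without overlap (SD, n = 3 each; exact permutation p = 0.1, the smallest possible). SLX1A and SULT1A3 have near-identical copies, and the values of SLX1A-SULT1A3 are uncertain. The shares of the groups did not overlap for 18 of the 76 members tested, among them 6 of the 7 that passed. A share is built from the same readthrough counts that were tested. For these 7 it therefore gives no independent support, and neither do the exact permutation p-values of their shares above. Non-overlap of 3 against 3 libraries has an exact permutation p of only 0.1. Shares were computed for readthrough loci alone, so this count has no background, and whether it exceeds chance was not tested. In the other 12 the share was higher in the knockdown for 5 and lower for 7, with differences from -27.8 to 8.65 percentage points.

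The members were also grouped by the protein that the annotation gives them. This protein shares residues in frame with both parents for 49 of the 120 members, with the upstream parent only for 17, with the downstream parent only for 7 and with neither for 1, and 46 have no transcript that the annotation labels protein coding, although it classes 36 of these genes as protein coding and 10 as long non-coding. Among those tested, 3 of 35 members with residues of both parents passed an adjusted p of 0.05, with 1 of 11 in the upstream group, 0 of 6 in the downstream group and 3 of 23 without such a transcript, against 9.21% of all members tested and 17.3% of all genes. The median log2 FCs of these 4 groups were -0.00, -0.28, 0.29 and -0.07.

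Genes that end transcripts or remove faulty ones were listed as the other genes of the pathway. The shares that passed in the lists below are to be read against the 17.3% of all genes tested. Of 34 tested genes for cleavage, polyadenylation and termination, 0 passed higher and 3 passed lower, with a median log2 FC of -0.08. The 3 were RPRD1A, which binds the tail of RNA polymerase II (log2 FC -0.38, edgeR adjusted p = 0.00697), CPSF6, a subunit of cleavage factor I (-0.40, edgeR adjusted p = 0.0124), and the termination factor TTF2 (-0.30, edgeR adjusted p = 0.0128). The 3 U1 snRNP protein genes, whose complex blocks early polyadenylation, had 0 in either direction. Of 14 Integrator subunits tested, INTS8 (-0.37, edgeR adjusted p = 0.00697) and the endonuclease INTS11 (-0.23, edgeR adjusted p = 0.0359) were lower and 0 higher, with a median of 0.05. Of 17 genes of nonsense-mediated decay, which removes transcripts with early stop codons, 0 were higher and 3 lower, with a median of -0.11. RNPS1, a protein deposited near exon junctions, fell from 208 ± 26.7 to 112 ± 7.15 CPM (log2 FC -0.89, SE 0.10, edgeR adjusted p = 0.000835; SD, n = 3 each). RBM8A, a core subunit of the exon junction complex, was at -0.47 (edgeR adjusted p = 0.0120). No gene of these 4 lists reached the 2-fold threshold, and their part in the readthrough results was not tested.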

How the data were processed

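RNA-seq libraries were made with the TruSeq RNA v2 kit, which keeps no strand, and sequenced as paired ends of the TC71 lines described above. The methods name hisat2, Ensembl annotation and StringTie 2.1.1 with hg38, while the submitters' processing notes list STAR 2.7.3a and DESeq2. The deposited values were whole-number, unnormalized counts per gene, and how they were made from the StringTie output is not given in the sources used here, so they may be estimates from transcript coverage. How reads on exons shared by a readthrough gene and its parents were divided is not given in the sources used here. The members that passed were therefore drawn beside their parents, and locus sums were tested too. The libraries had no molecular identifiers, so counts are not numbers of molecules.

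The members and gene lists were chosen with earlier results of these data known. Counts were tested in R 4.3.3 with edgeR 4.0.16 (TMM, robust glmQLFit, glmQLFTest) on 16785 genes that reached 10 counts in 3 or more libraries, and on 16638 rows for locus sums. Calls needed an adjusted p under 0.05 and a fold of at least 2, the thresholds of the study. Log2 CPM used a prior count of 2. The members named by rule were all that passed, the 10 highest per kb and the 5 highest shares, and the other members named were chosen after their values were seen. Exons came from GENCODE 44, which held 99.5% of the identifiers, and protein kinds from coding exons shared in frame over at least 30 residues. Of 200 genes changed by 1.5 (log2) in simulated counts, edgeR recovered 81.5%. These counts were drawn at the dispersion trend of all genes tested. Readthrough genes varied more (median spread 0.62, against 0.16 over all genes tested), so this rate does not describe them. Alternatives were DESeq2 1.42.0 and its size factors, other filters, a replicate block, each library left out and, for shares, levels per kb and an added count. The values of 1 gene of the nonsense-mediated decay list are not reported here.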

Additional observations from a re-analysis of the deposited data

How the results depend on the processing

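Readthrough genes called numbered 3, against 7 with DESeq2, 5 with the replicate block and 2 to 5 with a library left out. At an adjusted p under 0.05 they numbered 7, against 12 with DESeq2 and 5 to 10 with a library left out. Parents called numbered 4, against 2 with the block and 1 to 5 with a library left out. Those at an adjusted p under 0.05 numbered 25, against 11 to 32 with a library left out. Of all genes, 2.82% were called, against 3.08% with DESeq2, 2.17% with the block and 1.78% to 2.75% with a library left out. The share of all genes that passed was 17.3%, against 23.9% with DESeq2, 10.5% with the block and 8.05% to 21.8% with a library left out. Locus sums called numbered 2, against 1 with the block and 0 to 2 with a library left out, and those at an adjusted p under 0.05 numbered 15, against 25 with DESeq2, 8 with the block and 4 to 19 with a library left out. Of all rows in those fits, 2.85% were called, against 2.25% with the block and 1.81% to 2.80% with a library left out. The share of rows that passed was 17.8%, against 24.3% with DESeq2, 11.1% with the block and 8.29% to 22.4% with a library left out. The cause of these differences was not tested. DESeq2's size factors and other filters on low counts kept these 6 counts within 1.5 times.

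The replicate numbers of the labels did not pair the libraries: after subtraction of group means, libraries with the same number correlated at 0.07, -0.06 and -0.04 across genes. With the numbers as a block, TIMM23B-AGAP6 had an adjusted p of 0.0538 and its locus sum 0.0557, and the other 6 changed members kept theirs under 0.05. RNASEK-C17orf49 had an adjusted p of 0.122 with no filter on low counts. DUS4L-BCAP29 could not be tested with at least 10 counts in every library, since control library 2 had 4. The ANKHD1-EIF4EBP3 locus sum, 0.02 on the log2 scale, ranged from -0.022 to 0.0517 with a library left out, and was negative without control library 3 (-0.022) and without knockdown library 2 (-0.00138). With levels per kb in place of counts, the difference in share (knockdown minus control) was 30.4 percentage points for DUS4L-BCAP29, -18.6 for POC1B-GALNT4, 8.53 for ANKHD1-EIF4EBP3 and -22.6 for JMJD7-PLA2G4B, each in the direction found with counts. The median spread of 0.62 on the log2 scale is 1.54-fold between libraries of 1 group, which limits the changes that 3 libraries can show.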
